A study of Mus musculus with 24 samples.

Results

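Small nucleolar RNA (snoRNA) host transcripts are typically spliced RNAs whose introns carry the snoRNAs, while their joined exons code for no known functional protein. The 8 mouse host genes described here, *Gas5*, *Snhg1*, *Snhg3*, *Snhg5*, *Snhg6*, *Snhg8*, *Snhg12* and *Snhg15*, were picked by name from the 56884 genes of the count table. All 8 passed the filter on low counts and stood among the 13679 genes tested.

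snoRNAs guide chemical modification of ribosomal and spliceosomal RNA: those of the C/D box class direct 2′-O-methylation and those of the H/ACA class direct pseudouridylation. They are cut out of the intron after splicing, and the exons that remain can reach the cytoplasm. There, ribosomes engage short open reading frames of several such RNAs, and a stop codon ahead of a splice junction can mark them for nonsense-mediated decay, which needs active translation. *Gas5* was named for its accumulation in growth-arrested cells, and its transcript is a textbook case of a host RNA with a pyrimidine-rich start that becomes more abundant when translation is blocked. The integrated stress response lowers general translation through phosphorylation of the initiation factor eIF2. The libraries measured RNA levels only, so translation or decay of the hosts was not measured.

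Bone marrow-derived macrophages (BMDM) of 4 female wild-type C57BL/6J mice aged 9 weeks, grown in M-CSF, gave 24 libraries, and each mouse, numbered 1, 2, 4 or 5, gave 1 library to each of 6 groups. The groups were unstimulated cells (naive), cells given IL-4 and IL-13 at 20 ng/ml each for 24 h (IL-4/IL-13), and 4 inhibitor groups. Those 4 had 1 h with an inhibitor and then 24 h with the same cytokines and the inhibitor together. The inhibitors were tunicamycin at 5 µg/ml, which blocks N-linked glycosylation in the endoplasmic reticulum, Sal003 at 10 µM, which slows the dephosphorylation of eIF2α and, for a pair of groups, oligomycin at 1 µM, an inhibitor of the ATP synthase of mitochondria. 1 of these oligomycin groups also received ISRIB at 1 µM, which counteracts the integrated stress response. The labels of the oligomycin groups contradict each other: the libraries called set A here are titled as oligomycin with ISRIB but named as oligomycin alone, and those called set B are titled as oligomycin alone but named as oligomycin with ISRIB. Neither reading was preferred on the strength of the measurements, so set A and set B stand for those 2 groups of labels throughout. The libraries came from cultures of primary cells without any genetic change, and 4 mice per group set the precision.

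The libraries held 16238727 to 26725278 reads assigned to genes. All 8 macrophage markers listed for the check of the cells were detected, with a summed level per library of 30800 to 36500 counts per 1000000 reads (CPM) in naive cells, 11900 to 14500 CPM with IL-4/IL-13, 16100 to 17700 CPM with tunicamycin, 14100 to 16000 CPM in set B, 14600 to 16400 CPM with Sal003 and 9370 to 10300 CPM in set A. The summed level of 7 neutrophil and granulocyte precursor markers was 40.6 to 76.7 CPM in naive cells, 24.1 to 44.4 CPM with IL-4/IL-13, 0.103 to 0.286 CPM with tunicamycin, 18.7 to 24.7 CPM in set B, 5.09 to 8.44 CPM with Sal003 and 2.73 to 4.71 CPM in set A. Both sums thus moved with the treatments, none of the 7 was at 0 in every library, and the part of either in the host transcripts' differences was not tested. The summed level of 4 stromal markers ran from 3.52 to 137 CPM, and the B cell, T cell, dendritic cell and mast cell lists each stayed at or below 6.37 CPM. In bulk RNA, fewer cells of a type and less RNA per cell cannot be told apart. Of the naive libraries, that of mouse 2 held the highest level of each of the 8 hosts.

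The 8 hosts differ in how many snoRNA genes they carry. The annotation placed 30 snoRNA genes inside them on the same strand: 10 in *Gas5* (chromosome 1, 160861793 to 160866118, plus strand, GRCm39), 8 in *Snhg1* (chromosome 19, 8700319 to 8703812, plus), 5 in *Snhg12* (chromosome 4, 132035905 to 132038762, plus), 2 in *Snhg3* (chromosome 4, 132075325 to 132080997, minus) and 2 in *Snhg5* (chromosome 9, 88377321 to 88405615, minus). *Snhg6* (chromosome 1, 9926809 to 10014504, minus), *Snhg8* (chromosome 3, 123301192 to 123302578, minus) and *Snhg15* (chromosome 11, 6473829 to 6478870, minus) each held 1. These are counts of annotated entries: *Snord80* in *Gas5* and *Snora16a* in *Snhg12* each have 2 entries that overlap almost fully. In *Gas5* the canonical transcript joins 11 exons into 669 bases, with snoRNA genes of the C/D class such as *Snord47*, *Snord78* and *Snord80* in its introns. *Snhg3*, *Snhg8* and *Snhg15* carry H/ACA snoRNAs, namely *Snora73a* and *Snora73b*, *Snora24* and *Snora9*, and *Snhg12* carries the H/ACA snoRNAs *Snora16a*, *Snora44* and *Snora61* beside the C/D snoRNA *Snord99*. The annotated canonical transcript of *Snhg12* is 1 exon of 2842 bases, so its 5 snoRNA genes lie in that exon, and the snoRNA gene of *Snhg15* overlaps an exon as well. A level per length rests on such annotated lengths.

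**Figure D1:**
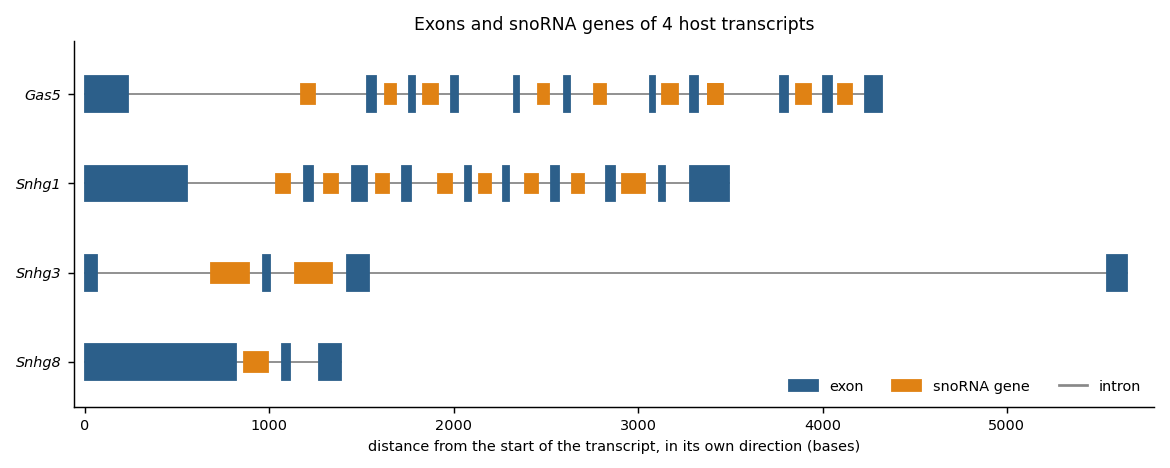
Exons (tall blue boxes) and snoRNA genes (orange boxes) along the canonical transcripts of 4 host genes, with introns as lines and the distance from each transcript's start in bases on the x axis. The 10 snoRNA genes of *Gas5* (with 2 overlapping entries of *Snord80*), the 8 of *Snhg1*, the 2 of *Snhg3* and the 1 of *Snhg8* lie between exons.

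Of the 30 snoRNA genes, 28 had no read in any library, *Snora73b* had 340 reads and *Snora73a* 28 reads over the 24 libraries, against 63347 reads on the 8 hosts. Each of the 28 lies wholly within an annotated exon of some transcript of its host on the same strand, *Snora73a* overlaps such exons over 159 of its 205 bases and *Snora73b* over none. Reads in shared bases overlap both genes and may be assigned to neither, so a count of 0 is no measure of a snoRNA's level, and the part of this overlap in the counts was not tested.

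The first bases of the hosts are shown because a start at C followed by a run of pyrimidines marks RNAs whose translation follows growth signals, and *Gas5* is known for it. Each line runs 5′ to 3′ over 80 bases, 40 before and 40 from the start, on the strand of the gene, as read from the GRCm39 genome. The start used was the most frequent among the annotated transcripts of the gene, for instance that of 80 of 229 in *Gas5*. In *Snhg3* it was the start of 1 of 5 transcripts, the canonical one. Capitals mark the pyrimidine run that begins at the start and, ahead of it, any match to the hexamer TATANA, which resembles a TATA box. A TATAAA of *Snhg3* spans the start used and is therefore not marked. The first 5 are the hosts that were higher in both tunicamycin and set A by the largest differences, and *Snhg3* is the host called in none of the 6 main comparisons.
Gas5 (chr1:160862696-160862775, plus): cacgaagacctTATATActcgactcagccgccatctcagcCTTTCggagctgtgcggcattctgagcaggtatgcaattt
Snhg1 (chr19:8700811-8700890, plus): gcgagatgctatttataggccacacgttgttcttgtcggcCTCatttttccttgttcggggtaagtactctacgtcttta
Snhg5 (chr9:88404905-88404984, minus): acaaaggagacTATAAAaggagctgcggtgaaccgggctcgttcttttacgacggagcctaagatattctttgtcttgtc
Snhg6 (chr1:10014304-10014383, minus): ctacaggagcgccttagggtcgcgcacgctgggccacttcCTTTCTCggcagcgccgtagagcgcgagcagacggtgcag
Snhg12 (chr4:132035947-132036026, plus): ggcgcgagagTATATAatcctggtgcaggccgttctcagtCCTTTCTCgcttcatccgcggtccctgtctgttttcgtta
Snhg3 (chr4:132080935-132081014, minus): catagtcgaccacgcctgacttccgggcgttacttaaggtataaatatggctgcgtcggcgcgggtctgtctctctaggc

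A start at C with a run of at least 5 C or T was found in 3 of the 8 hosts, *Gas5* with 5 bases, *Snhg6* with 7 and *Snhg12* with 8. Among all tested genes with a window, 552 of 13632 (4.05%) had such a start, as did 5 of 24 other noncoding snoRNA hosts (20.8%) and 11 of 233 protein-coding hosts (4.72%). TATANA on the gene's strand within the 40 bases before the start was found in 4 of 8 hosts, *Gas5*, *Snhg5*, *Snhg8* and *Snhg12*, against 262 of 13632 tested genes (1.92%), 5 of 24 other noncoding hosts (20.8%) and 5 of 233 protein-coding hosts (2.15%). That hexamer was searched after the windows had been seen. In windows of 300 bases, from 250 before to 50 after the start and on both strands, the C/EBP-ATF response element core TGATGNAA was in none of the 8 and in 2.79% of tested genes, the E-box CACGTG in 1 of 8 (*Snhg15*) and 9.78%, the NRF1 motif core GCATGCGC in none and 4.62%, and CTCGCGAG in none and 1.61%. The rule for the start was set after the canonical starts had been seen. In *Gas5* the start used was base 160862736, while the canonical transcript starts at 160861794. The matches depend on the annotated start. RefSeq (GRCm38.p6), matched for 7 of the 8, placed it at the same base in *Gas5* and *Snhg1*, 2 to 7 bases downstream in *Snhg8*, *Snhg12* and *Snhg15*, 6 bases upstream in *Snhg5* and 23 bases upstream in *Snhg3*. These are matches of letters, not sites of binding.

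In cells given IL-4/IL-13, *Gas5* had the highest level per length, 69.2 CPM per kb of the canonical transcript, followed by *Snhg3* with 17.7, *Snhg1* with 9.35 and *Snhg8* with 7.86 CPM per kb. *Snhg5*, *Snhg15*, *Snhg6* and *Snhg12* stood at 5.66, 4.66, 2.86 and 2.18 CPM per kb. Divided by the length of all annotated exons together, the level of *Gas5* was 10.9 CPM per kb and that of *Snhg6*, the lowest, 1.12, so that the order below *Gas5* rests on the transcript assumed. All levels that follow are CPM per gene, a scale that compares groups and not genes.

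**Figure D2:**
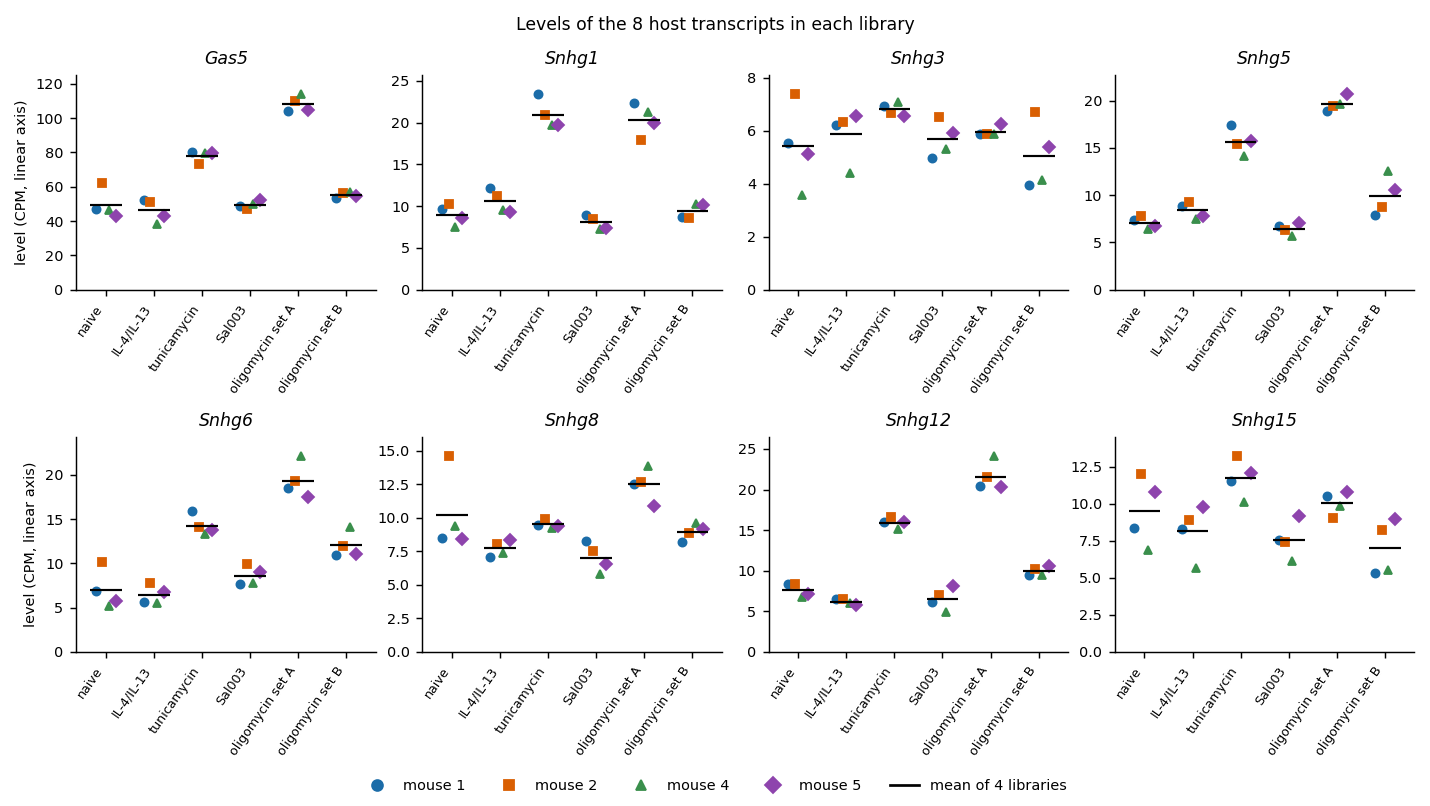
Level of each of the 8 host transcripts in CPM (linear y axis from 0) in every library, with the 6 groups on the x axis, a symbol and colour per mouse, and a line at the mean of the 4 libraries. Tunicamycin and set A stand above IL-4/IL-13 without overlap for *Gas5*, *Snhg1*, *Snhg5*, *Snhg6*, *Snhg8* and *Snhg12*, whereas the groups of *Snhg3* lie close together. The share of all genes without such overlap was not computed.

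Tunicamycin raised 7 of the 8 hosts over IL-4/IL-13 alone and set A raised 6, and none was lower in either. The median difference over the 8 was a log2 fold change of 0.83 with tunicamycin and 1.08 in set A, beside a median of 0.01 over all genes tested in each. With tunicamycin the middle 90% of all genes ran from -3.03 to 1.87 and held all 8 hosts. In set A it ran from -1.85 to 1.31, and only *Snhg6* (1.58) and *Snhg12* (1.8) lay beyond it. Among all genes tested, 38.7% were called higher with tunicamycin and 37.6% lower, and 34.0% were higher in set A and 32.2% lower. Sal003 raised 1 host and lowered 2, where 25.9% of all genes were higher and 24.6% lower, and set B raised 3 and lowered none, where 27.9% were higher and 26.4% lower. The 4 comparisons use the same IL-4/IL-13 libraries, so their differences are not independent of each other. A gene was called at an adjusted *P* under 0.05.

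At the study's threshold of 2.5-fold the calls were few. *Snhg12* passed it with tunicamycin, *Snhg6* and *Snhg12* passed it in set A, and no host passed it with Sal003, in set B or in IL-4/IL-13 against naive. The share of all genes past it in either direction was 22.6% with tunicamycin, 12.7% in set A, 7.71% with Sal003, 7.96% in set B and 11.5% in IL-4/IL-13 against naive.

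**Figure D3:**
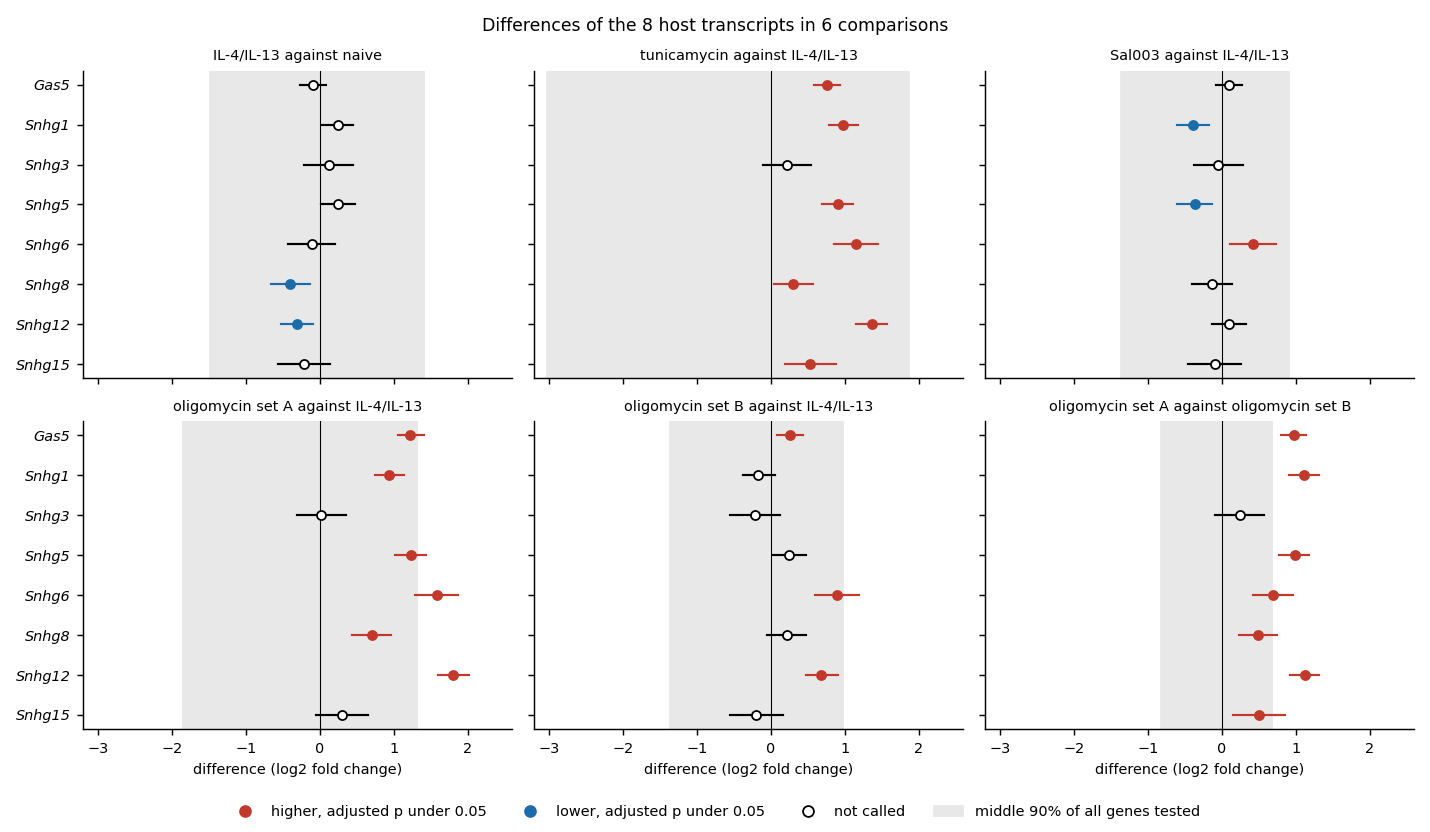
Difference of each host transcript (log2 fold change, x axis) in 6 comparisons, with 95% confidence intervals as bars; filled points were called at an adjusted p under 0.05, in red where higher and blue where lower, and the grey band holds the middle 90% of all genes tested. In set A against set B, 7 of 8 hosts were higher, and 5 of them (*Gas5*, *Snhg1*, *Snhg5*, *Snhg6* and *Snhg12*) lie beyond the band. In set A against IL-4/IL-13, *Snhg6* and *Snhg12* lie beyond it, and no host does in the remaining comparisons.

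*Gas5* carries the most snoRNAs and had the most reads of the 8. Its level in IL-4/IL-13 was 52.4, 51.1, 38.3 and 43.2 CPM in mice 1, 2, 4 and 5, in which order all values below are given. With tunicamycin it was 80.4, 73.3, 79.5 and 79.7 CPM, and in set A 104, 110, 114 and 105 CPM. Every tunicamycin library stood above every IL-4/IL-13 library, and every set A library above every tunicamycin library. The log2 fold change was 0.76 ± 0.088 (SE, n = 4 mice per group) with tunicamycin (adjusted *P* = 2.9e-08), 1.22 ± 0.088 in set A (adjusted *P* = 6.9e-12) and 0.47 ± 0.085 in set A against tunicamycin (adjusted *P* = 3.7e-05). In set B *Gas5* had 53.7, 56.2, 56.7 and 54.5 CPM, a log2 fold change of 0.26 ± 0.089 (adjusted *P* = 0.018) that was above IL-4/IL-13 in all 4 mice. The set B call was lost without mouse 4 (0.16, adjusted *P* = 0.19) or mouse 5 (0.22, adjusted *P* = 0.097). With Sal003 the 48.6, 47.3, 49.8 and 52.5 CPM overlapped those of IL-4/IL-13, and the interval of the difference ran from -0.08 to 0.27 (adjusted *P* = 0.38).

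*Snhg1*, the other host of many C/D snoRNAs, rose about equally with tunicamycin and in set A. Its level was 12.2, 11.2, 9.58 and 9.29 CPM with IL-4/IL-13, 23.4, 20.9, 19.7 and 19.7 CPM with tunicamycin, and 22.3, 17.9, 21.2 and 20.0 CPM in set A. Both treated groups lay above IL-4/IL-13 without overlap, and they overlapped each other. The log2 fold change was 0.98 ± 0.102 (adjusted *P* = 3.4e-09) with tunicamycin and 0.94 ± 0.102 (adjusted *P* = 1.1e-08) in set A, and the interval of the difference between those groups ran from -0.23 to 0.15. Sal003 moved *Snhg1* the other way: the 8.98, 8.52, 7.30 and 7.41 CPM all lay below IL-4/IL-13, with a log2 fold change of -0.39 ± 0.111 (adjusted *P* = 0.0045). In set B the 8.67, 8.54, 10.3 and 10.1 CPM overlapped IL-4/IL-13, with an interval from -0.38 to 0.05 (adjusted *P* = 0.21).

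*Snhg5*, the host of *Snord50a* and *Snord50b*, followed *Snhg1* in direction with tunicamycin, in set A and with Sal003. Levels of 8.91, 9.33, 7.48 and 7.83 CPM with IL-4/IL-13 stood against 17.4, 15.4, 14.2 and 15.7 CPM with tunicamycin and 18.9, 19.4, 19.6 and 20.7 CPM in set A. The 3 groups did not overlap, and the log2 fold change was 0.90 ± 0.109 (adjusted *P* = 5.4e-08) with tunicamycin and 1.23 ± 0.107 (adjusted *P* = 2.7e-10) in set A. Sal003 gave 6.70, 6.37, 5.72 and 7.10 CPM, all below IL-4/IL-13 (log2 fold change -0.37 ± 0.119, adjusted *P* = 0.011), and that call was lost without mouse 2 (-0.31, adjusted *P* = 0.084). Set B spread from 7.96 to 12.6 CPM and was higher than IL-4/IL-13 in 2 of 4 mice, at 0.25 ± 0.113 (adjusted *P* = 0.064). Without mouse 1 or mouse 2 that difference was 0.36 and 0.37 and was called.

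*Snhg6*, the host of *Snord87*, was the only one of the 8 called higher with each of the 4 inhibitor treatments, though the Sal003 call was weak. It had 5.63, 7.82, 5.53 and 6.80 CPM with IL-4/IL-13 and 15.9, 14.1, 13.3 and 13.8 CPM with tunicamycin. Set A libraries held 18.5, 19.3, 22.1 and 17.5 CPM, and those of set B 10.9, 12.0, 14.1 and 11.1 CPM. Tunicamycin, set A and set B all lay above IL-4/IL-13 without overlap. The log2 fold change was 1.15 ± 0.151 (adjusted *P* = 2.1e-07), 1.58 ± 0.148 (adjusted *P* = 8.7e-10) and 0.89 ± 0.153 (adjusted *P* = 2.1e-05) in that order. With Sal003 the 7.73, 9.92, 7.76 and 9.01 CPM exceeded IL-4/IL-13 in each mouse but overlapped as groups (0.42 ± 0.158, adjusted *P* = 0.031). The Sal003 call was lost with upper-quartile normalization (adjusted *P* = 0.06) and without mouse 1, 4 or 5 (adjusted *P* from 0.057 to 0.12).

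*Snhg12*, which carries *Snora16a*, *Snora44*, *Snora61* and *Snord99*, had the largest difference of the 8 with tunicamycin and in set A. With IL-4/IL-13 its level was tight, at 6.46, 6.46, 6.06 and 5.77 CPM. It was 16, 16.6, 15.1 and 16 CPM with tunicamycin, 9.42, 10.2, 9.44 and 10.6 CPM in set B, and 20.5, 21.5, 24.1 and 20.3 CPM in set A. The groups stood in 4 separate ranges, with set A at the top and IL-4/IL-13 at the bottom. That made *Snhg12* 2.57-fold higher with tunicamycin (adjusted *P* = 1.7e-11), 3.48-fold higher in set A (adjusted *P* = 1.1e-13) and 1.61-fold higher in set B (adjusted *P* = 9.9e-06). Sal003 libraries ranged from 4.87 to 8.18 CPM around the IL-4/IL-13 level, with an interval of the log2 difference from -0.14 to 0.32 (adjusted *P* = 0.55).

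*Snhg8*, *Snhg15* and *Snhg3* had the smallest differences of the 8 with tunicamycin and in set A. *Snhg8* had 7.07, 8.07, 7.37 and 8.38 CPM with IL-4/IL-13 and 12.5, 12.7, 13.9 and 10.9 CPM in set A, a log2 fold change of 0.70 ± 0.133 without overlap (adjusted *P* = 5.9e-05). With tunicamycin it had 9.50, 9.95, 9.25 and 9.37 CPM, above IL-4/IL-13 in all 4 mice (0.30 ± 0.136, adjusted *P* = 0.048). This call sat at the threshold and was lost with DESeq2 (adjusted *P* = 0.081), with upper-quartile normalization (0.11), with at least 10 counts in every library (0.091) and without mouse 1 or 4 (0.11 each). *Snhg15* had 8.30, 8.88, 5.69 and 9.77 CPM with IL-4/IL-13 and 11.5, 13.2, 10.1 and 12.1 CPM with tunicamycin, which was higher by a log2 fold change of 0.53 ± 0.176 (adjusted *P* = 0.009). In set A its 10.5, 9.03, 9.85 and 10.8 CPM were above IL-4/IL-13 in each mouse, at 0.30 ± 0.178 (adjusted *P* = 0.14). Mouse 4 gave the lowest *Snhg15* level in 4 of the 6 groups, and the fit with the mouse as a replicate block gave 0.31 for set A with an adjusted *P* of 0.024, which is past the threshold.

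*Snhg3* was called in none of these comparisons. Its mean ± SD was 5.89 ± 0.989 CPM with IL-4/IL-13, 6.81 ± 0.239 CPM with tunicamycin, 5.69 ± 0.686 CPM with Sal003, 5.05 ± 1.29 CPM in set B and 5.97 ± 0.187 CPM in set A. The 4 tunicamycin libraries (6.93, 6.66, 7.09 and 6.57 CPM) lay just above those of IL-4/IL-13 (6.24, 6.35, 4.42 and 6.56 CPM), with an interval of the log2 difference from -0.11 to 0.54 (adjusted *P* = 0.25). In set A the interval ran from -0.31 to 0.35, so a rise of the size of *Gas5* or *Snhg12* lies outside it. Of the annotated *Snhg3* exons, 64.2% overlap the protein-coding gene *Rcc1* on the same strand and 71.5% overlap *Gm17300* on the other strand. Whether the counting used strand is not given in the sources used here, and reads in shared exons cannot be assigned to 1 gene, so that the *Snhg3* count may cover only part of its transcript.

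Set A and set B, which the labels separate only by ISRIB, were compared directly. Of the 8 hosts, 7 were higher in set A and none was lower, where 19.9% of all genes were higher and 21.3% lower. The log2 fold change was 1.12 ± 0.098 for *Snhg12* (adjusted *P* = 1.4e-09), 1.11 ± 0.102 for *Snhg1* (3.2e-09), 0.98 ± 0.105 for *Snhg5* (4.1e-08) and 0.97 ± 0.087 for *Gas5* (2.0e-09). *Snhg6*, *Snhg15* and *Snhg8* followed with 0.69, 0.50 and 0.48 (adjusted *P* = 0.00023, 0.027 and 0.0041). The libraries of those 7 hosts did not overlap between the sets, but the share of all genes without such overlap was not computed. The *Snhg15* call was lost without mouse 1 (0.38, adjusted *P* = 0.22) or mouse 4 (0.42, adjusted *P* = 0.052). For *Snhg3* the difference was 0.24 ± 0.168 (adjusted *P* = 0.28). The median over the 8 was 0.83, beside 0 over all genes.

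The cytokines alone moved the hosts little. Against naive cells, IL-4/IL-13 lowered 2 of 8 and raised none, where 30.4% of all genes were lower and 30.1% higher. *Snhg8* had 8.49, 14.6, 9.38 and 8.40 CPM in naive cells, all above the IL-4/IL-13 libraries (log2 fold change -0.40 ± 0.136, adjusted *P* = 0.014). The naive library of mouse 2 stood far above the other 3, and without that mouse the difference was -0.20 (adjusted *P* = 0.16). *Snhg12* had 8.39, 8.41, 6.76 and 7.16 CPM in naive cells (-0.31 ± 0.113, adjusted *P* = 0.021), a call that was lost without mouse 1 (adjusted *P* = 0.12) or mouse 2 (adjusted *P* = 0.095). *Snhg1* was higher with IL-4/IL-13 in all 4 mice by 0.24 ± 0.109 (adjusted *P* = 0.061), and the fit with the mouse as a replicate block called it at the same 0.24 (adjusted *P* = 0.041). The other 5 hosts ranged from -0.22 (*Snhg15*) to 0.25 (*Snhg5*) and were not called.

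The order of the 6 groups by mean level was led by set A for *Gas5*, *Snhg5*, *Snhg6*, *Snhg8* and *Snhg12*, and by tunicamycin for *Snhg1*, *Snhg3* and *Snhg15*. Set A differed from tunicamycin, the next group, for *Gas5*, *Snhg5* (adjusted *P* = 0.0066), *Snhg6* (0.0068) and *Snhg12* (0.00027), and it differed from naive, the next group, for *Snhg8* (0.041, with overlapping libraries). The leading pair did not differ for *Snhg1* (adjusted *P* = 0.73), *Snhg3* (0.32) and *Snhg15* (0.25). Among groups below the top 2 in this order, neighbours differed only in 2 cases, set B against Sal003 for *Snhg6* (adjusted *P* = 0.024) and set B against naive for *Snhg12* (0.0038).

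The other 9 pairs of groups were compared as well. The percentages here count all genes called in either direction, whereas the host counts are given by direction. The shares of all genes called in a single direction would be smaller. With tunicamycin against naive, 5 were higher (77.6% of all genes were called in either direction), in set A against naive 6 were higher (71.0%), and in set A against Sal003 6 were higher (51.5%). Set A exceeded tunicamycin for 5 hosts (63.5%). Sal003 lay below tunicamycin for 7 (71.9%) and set B lay below tunicamycin for 6 (71.1%). Set B against naive gave 3 higher and 1 lower (63.8%), set B against Sal003 gave 3 higher (18.5%), and Sal003 against naive gave 1 lower (62.5%).

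Protein-coding genes that start beside or overlap a host were compared with it. *Slc3a2*, which encodes the heavy chain of an amino acid exchanger and is transcribed away from the *Snhg1* start, rose from 202 CPM with IL-4/IL-13 to 2920 CPM with tunicamycin (log2 fold change 3.85), 514 CPM with Sal003 (1.35), 668 CPM in set B (1.73) and 1100 CPM in set A (2.45). *Snhg1* was lower with Sal003 and was not called in set B, where *Slc3a2* was higher (adjusted *P* = 7e-14 and 6.4e-16). Annotated *Slc3a2* transcripts overlap 21.3% of the *Snhg1* exons on the other strand, and without a stated strand setting reads in that stretch are uncertain. *Zbtb37*, transcribed away from *Gas5*, had log2 fold changes of 0.29 with tunicamycin (adjusted *P* = 0.0097) and 0.19 in set A (adjusted *P* = 0.092), against 0.76 and 1.22 for *Gas5*. *Rcc1*, which encodes a chromatin-bound exchange factor and shares exons with *Snhg3*, was higher with IL-4/IL-13 than in naive cells (0.76, adjusted *P* = 7.8e-12) and lower with Sal003 (-0.47, adjusted *P* = 6.5e-08).

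**Figure D4:**
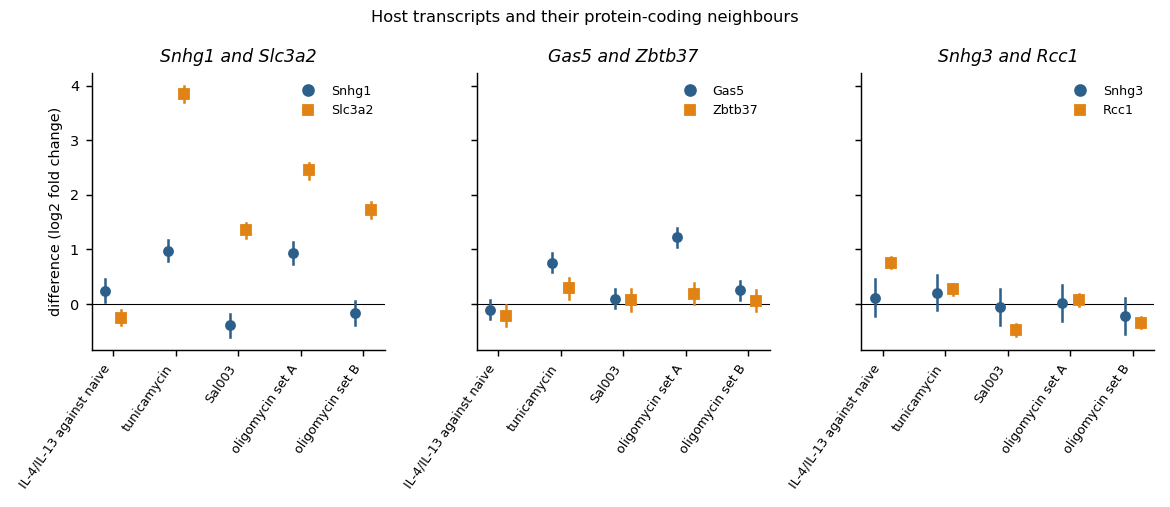
Difference (log2 fold change, y axis, with 95% confidence intervals) of a host transcript (blue circles) and of a protein-coding neighbour (orange squares) in IL-4/IL-13 against naive and in each inhibitor group against IL-4/IL-13. *Slc3a2* reached 3.85 with tunicamycin, while *Snhg1* reached 0.98 and fell below 0 with Sal003.

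Of 83 other noncoding snoRNA hosts in the annotation, 24 were tested: 8 were higher and 4 lower with tunicamycin, 1 higher and 6 lower with Sal003, 9 higher and 4 lower in set A, 4 higher and 5 lower in set B, and 9 higher and 1 lower in set A against set B. The share called higher was 33.3% with tunicamycin, beside 38.7% of all genes, and 37.5% in set A, beside 34.0%. The share lower was 16.7% in each, beside 37.6% and 32.2%. With Sal003 4.17% were higher and 25% lower, beside 25.9% and 24.6% of all genes. In set B these shares were 16.7% and 20.8%, beside 27.9% and 26.4%. In set A against set B they were 37.5% and 4.17%, beside 19.9% and 21.3%. Their median log2 fold change was 0.21 with tunicamycin, -0.14 with Sal003, 0.20 in set A, -0.02 in set B and 0.26 in set A against set B. *2410006H16Rik* rose by 1.52 with tunicamycin and 1.44 in set A, and *9330159M07Rik* by 1.19 with tunicamycin. *Zfas1*, a host of C/D snoRNAs, rose in set A (1.37), set B (1.12) and Sal003 (0.79), and was at -0.17 and not called with tunicamycin. *Gm56975* had the largest falls: it fell by 4.70 with tunicamycin and fell by 3.64 in set A. Its mean was 2.83 CPM with IL-4/IL-13, 0.102 CPM with tunicamycin and 0.222 CPM in set A, so those falls end near the floor.

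**Figure D5:**
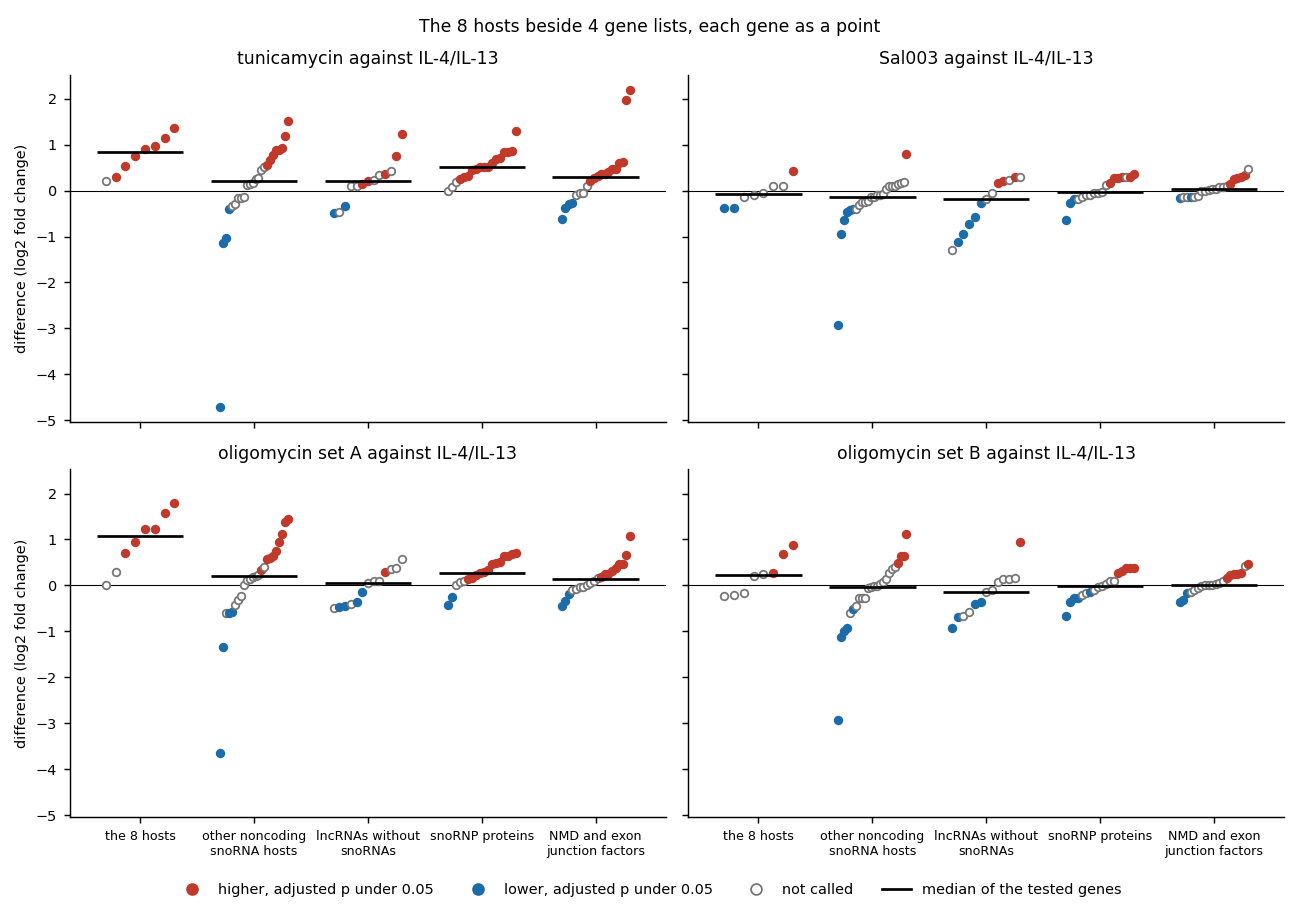
Each gene as a point at its difference from IL-4/IL-13 (log2 fold change, y axis) in the 4 inhibitor groups, for the 8 hosts and 4 gene lists on the x axis; red points were called higher, blue points lower, open points were not called, and the line is the median of the tested genes. The median of the 8 hosts was 0.83 with tunicamycin and 1.08 in set A, and that of the other noncoding hosts was 0.21 and 0.20.

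Long noncoding RNAs that carry no snoRNA served for comparison. Of 15 listed, 13 were tested, with 5 higher and 2 lower with tunicamycin, 3 higher and 5 lower with Sal003, 1 higher and 4 lower in set A, and 1 higher and 4 lower in set B. With tunicamycin 38.5% were higher, beside 38.7% of all genes, and 15.4% lower, beside 37.6%. In set A 7.69% were higher, beside 34.0% of all genes, and 30.8% lower, beside 32.2%. With Sal003 23.1% were higher and 38.5% lower, beside 25.9% and 24.6%. In set B 7.69% were higher and 30.8% lower, beside 27.9% and 26.4%. *Kcnq1ot1*, an imprinted antisense RNA, rose by 1.23 with tunicamycin and *Firre* by 0.75 with tunicamycin and 0.30 in set A. *Oip5os1* fell by 0.48 and 0.44, and *Pvt1* fell by 0.34 and 0.47, in that order of treatments. The median of the 13 was 0.21 with tunicamycin and 0.05 in set A.

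Genes for the decay machinery changed in both directions. Of 20 nonsense-mediated decay and exon junction genes, all tested, 12 were higher and 4 lower with tunicamycin, 5 higher and 2 lower with Sal003, 9 higher and 3 lower in set A, and 6 higher and 3 lower in set B. The share higher was 60% with tunicamycin and 45% in set A, beside 38.7% and 34.0% of all genes. The share lower was 20% and 15%, beside 37.6% and 32.2%. With Sal003 25% were higher and 10% lower, beside 25.9% and 24.6%. In set B 30% were higher and 15% lower, beside 27.9% and 26.4%. *Magohb*, an exon junction subunit, rose by 2.18 with tunicamycin and 1.08 in set A, *Nbas* by 1.98 with tunicamycin, and *Etf1*, a release factor, by 0.66 in set A. *Upf1*, the central helicase of the pathway, fell by 0.37 with tunicamycin and by 0.44 in set A. *Dhx34* fell by 0.61 with tunicamycin and *Upf3b* by 0.34 in set A. Of 8 messenger RNAs known to be decay substrates, 7 were tested, with 4 higher and 3 lower with tunicamycin, 4 higher and 2 lower with Sal003, 4 higher and 2 lower in set A, and 4 higher and 1 lower in set B. In each of these groups 57.1% were higher, beside 38.7%, 25.9%, 34.0% and 27.9% of all genes in that order. The shares lower were 42.9%, 28.6%, 28.6% and 14.3%, beside 37.6%, 24.6%, 32.2% and 26.4%. *Ddit3* and *Gadd45a* rose by 4.21 and 3.72 with tunicamycin and by 2.80 and 3.11 in set A, whereas *Atf3* fell by 1.48 with tunicamycin and *Map3k14* by 1.11 in set A. *Ddit3* and *Atf4* rose by 0.97 and 0.61 with Sal003 and by 1.93 and 1.82 in set B, and both are also known as transcriptional targets of stress signalling. Their log2 fold change in set A against set B was 0.88 and 0.56, both called higher.

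Genes for proteins that bind and assemble snoRNAs were mostly called higher with tunicamycin and in set A. Of 18 such genes, all tested, 15 were higher and none lower with tunicamycin, 13 higher and 2 lower in set A, 6 higher and 3 lower with Sal003, 5 higher and 5 lower in set B, and 12 higher and none lower in set A against set B. *Nop58*, a core C/D protein, rose by 1.30 with tunicamycin and *Nolc1* by 0.86. *Znhit6* and *Nufip1*, assembly factors, rose by 0.71 and 0.69 in set A. *Nop10* and *Dkc1*, core H/ACA proteins, fell by 0.43 and 0.26 in set A, and *Dkc1* fell by 0.63 with Sal003. The median of the 18 was 0.52 with tunicamycin and 0.28 in set A. Of the 18, 83.3% were higher with tunicamycin and 72.2% in set A, beside 38.7% and 34.0% of all genes. In set A 11.1% were lower, beside 32.2%. With Sal003 33.3% were higher and 16.7% lower, beside 25.9% and 24.6%. In set B 27.8% were higher and 27.8% lower, beside 27.9% and 26.4%. In set A against set B 66.7% were higher, beside 19.9%. With IL-4/IL-13 against naive, 11 of the 18 were higher and none lower, where 30.1% of all genes were higher and 30.4% lower.

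Across the 24 libraries the 8 hosts varied together. Pearson's r between log2 CPM was above 0 for all 28 pairs of hosts, with a median of 0.665 and a range of 0.23 to 0.94. After the group means were removed, the median was 0.445. The libraries share their groups, mice and depth, so these are descriptions. *Gas5* (r = 0.94) and *Snhg12* (0.937) lay nearest the mean profile of the 8 and *Snhg3* (0.58) farthest from it. That mean contains the host itself, which raises these values. Against the mean of the other 7 hosts, r was 0.918 for *Gas5*, 0.914 for *Snhg12* and 0.467 for *Snhg3*. Outside the 8, genes near the mean profile of the 8 included *Sphk2* (r = 0.935), *Prpf40b* (0.929), *Smndc1* (0.922) and *Hnrnpd* (0.918), which are not part of that mean. *Sphk2*, a sphingosine kinase gene, had mean levels of 150 CPM with IL-4/IL-13, 247 CPM with tunicamycin and 246 CPM in set A, and *Prpf40b*, a splicing factor gene, had 7.74, 18.2 and 19.4 CPM. The genes nearest *Snhg3* were *Mus81* (0.743), *Ankrd54* (0.737), *Urm1* (0.731), *Dpm2* (0.716) and *Cdk11b* (0.706).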

How the data were processed

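RNA-seq libraries were made from polyadenylated RNA and sequenced as single reads. Per the labels and the study's methods, the authors trimmed reads (cutadapt 1.8), aligned them to GRCm39 (STAR 2.7) and counted them per gene (HTSeq 0.9.1), and the deposited table holds raw read counts. Rows that name no gene held 12.7 to 15.2% of each column and were left out. The authors' TPM table was not used, because its header and rows differ in length.

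The 56884 genes were filtered with filterByExpr (13679 tested), scaled by TMM and fitted with edgeR 4.0.16 (R 4.3.3) quasi-likelihood, 1 coefficient per group over all 24 libraries, with Benjamini-Hochberg adjustment over all tested genes. The procedure was tested on simulated counts. CPM are counts per 1000000 after TMM. Alternatives were DESeq2 1.42.0, upper-quartile scaling, other filters, only the 2 groups compared, leaving out each mouse and the mouse as a replicate block. The same mouse gave same-numbered libraries, and their deviations from group means had a median correlation of 0.24, against -0.05 between mice. Gene models were GENCODE M39 on GRCm39, matched to 56323 of the IDs, a later release than the annotation counted with.

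The members and lists were chosen with earlier results of these data known. Named genes were the 8 hosts, up to 2 strongest called rises and falls per list and comparison, protein-coding neighbours, and the 5 genes of most similar profile. Start sites were set to the most frequent start of a gene's transcripts after the canonical ones had been seen. The values of 2 genes that this rule names are not reported here.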

Additional observations from a re-analysis of the deposited data

Results flagged for a closer look

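In each of the 48 combinations of a host and a group, the gap between the highest or lowest library and its neighbour was compared with the range of the 4 libraries. Chance sets apart about 1 in 20 such groups, and 4 of 48 were set apart here. In naive cells, mouse 2 had 14.6 CPM of *Snhg8*, where the others had 8.4 to 9.38 CPM. With tunicamycin, mouse 2 had 73.3 CPM of *Gas5*, below the 79.5 to 80.4 CPM of the others. For *Snhg3*, mouse 4 had 4.42 CPM with IL-4/IL-13, below 6.24 to 6.56 CPM, and mouse 5 had 6.25 CPM in set A, above 5.87 to 5.88 CPM.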

How the results depend on the processing

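Over 480 values of single hosts under the alternatives, 448 kept their direction and their side of the threshold, 20 lost a call, 6 gained one and 6 changed sign. None of the sign changes was of a called difference: with each mouse left out, *Snhg6* in IL-4/IL-13 against naive ranged from -0.20 to 0.00, *Snhg3* with Sal003 from -0.13 to 0.03, *Snhg12* with Sal003 from -0.07 to 0.20 and *Snhg3* in set A from -0.09 to 0.07, and *Snhg3* in set A was -0.01 both with DESeq2 and with at least 10 counts in every library. The count of hosts lowered by IL-4/IL-13 was 1 without a filter on low counts, 1 with only the 2 groups compared and 0 to 2 when each mouse was left out. The count raised was 1 with DESeq2, without a filter, or with the mouse as a replicate block. With Sal003, the count raised was 0 with upper-quartile normalization and 0 to 1 when each mouse was left out, and the count lowered was 1 to 2. At the 2.5-fold threshold, the counts raised were 1 with tunicamycin, 2 in set A, 0 in set B, 0 with Sal003 and 0 in set A against set B, and the counts lowered were 0 for IL-4/IL-13 and for Sal003. The replicate block also called *Snhg15* in set A, which made 7 hosts raised there, and it changed no other call. Upper-quartile normalization kept the order of groups for 7 of 8 hosts and swapped the top 2 for *Snhg1*; it moved the median of all genes by at most 0.052. Where it was not stated, the cause was not tested. Low counts, 67 to 471 reads per library for the hosts other than *Gas5*, and 4 mice per group limit what could be detected.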

Other observations

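Protein-coding hosts of snoRNAs were a larger group. Of 283 in the annotation 233 were tested, and 104 were higher and 77 lower with tunicamycin, with a median log2 fold change of 0.02, and 93 higher and 63 lower in set A, with a median of 0.08. With tunicamycin 44.6% were higher and 33% lower, beside 38.7% and 37.6% of all genes. In set A 39.9% were higher and 27% lower, beside 34.0% and 32.2%. Of the 30 ribosomal protein genes among them, 4 were higher (13.3%) and 11 lower (36.7%) with tunicamycin (median -0.15). The share lower was thus near the 37.6% of all genes. In set A 13 were higher (43.3%) and 1 lower (3.33%), with a median of 0.18. In set B 10 were higher (33.3%) and 1 lower (3.33%), with a median of 0.08, beside 27.9% and 26.4% of all genes. *Rpl4* rose by 0.35 with tunicamycin, 0.32 in set B and 0.58 in set A, *Rpl37* and *Rpl39* fell by 0.45 and 0.44 with tunicamycin, and *Rpl5* fell by 0.27 in set B and by 0.19 in set A. Of the other 203 hosts, *Hspa9*, a mitochondrial chaperone gene, rose by 1.35 in set B and 2.15 in set A, which was not the largest rise in either. *Top2a* and *Pole*, genes of dividing cells, fell by 3.16 and 3.05 in set A. The largest changes of these hosts with tunicamycin are not given here.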
